A study of Mus musculus with 9 samples.

Results

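Cells that the study designates activated hepatic stellate cells (aHSCs) were compared. WT1-high cells were taken straight from fibrotic mouse liver, and WT1-negative cells were taken from culture. The comparison used 3 arrays a side, 6 of the 9 arrays of the series, chosen by the labels alone, and all probes of the Illumina MouseWG-6 v2.0 bead array. All cells were labelled as coming from male C57/Bl6 mice heterozygous for a reporter allele in which green fluorescent protein (GFP) marks the WT1 locus (WT1GFP/+), so that GFP fluorescence stood for WT1 expression and every sample, the WT1-negative samples included, carried the reporter allele. The WT1-high samples (replicates 1, 8 and 29) were GFP-high cells sorted from the buoyant stellate cell fraction of livers injured with carbon tetrachloride (CCl4) for 8 weeks, with 2 injections per week, in mice aged 8 to 12 weeks at the start, and were isolated 1 day after the last injection. The WT1-negative samples (replicates 3, 11 and 14) were GFP-negative cells sorted after quiescent stellate cells from uninjured liver had been cultured for 7 days on plastic. The remaining 3 arrays held WT1-intermediate cells from injured livers and entered the normalization and the estimate of the spread. Per the study's methods, in vivo replicates are individual animals and replicates of cultured cells are separate cell isolations, which the labels themselves do not show.

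Hepatic stellate cells store vitamin A in lipid droplets in healthy liver and turn into contractile, matrix-producing myofibroblasts after injury, and culture on stiff plastic sets off a comparable activation. WT1 is a zinc finger transcription factor of the mesothelium, the squamous epithelium that covers the liver and other organs, and of the mesenchyme that arises from it during development. A mesothelial cell carries both mesenchymal and epithelial genes, secretes lubricants such as hyaluronan and lubricin, and is recognised by mesothelin and uroplakins. Because injury in the animal, WT1 status and the array table all separated the same samples, WT1 and origin cannot be told apart, and every difference below is between WT1-high cells of injured liver and WT1-negative cells of culture. No probe carried the symbol Wt1, so the gene that defines the groups was not analysed here and the labels could not be checked against it.

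Array quality was compared first. Detected probes (detection p under 0.05) numbered between 17253 and 19774 per array over all 9 arrays, or 38.1% to 43.67% of 45281, and both limits were set by WT1-high arrays. The mean signal was 231.4 to 288.9 on the WT1-high arrays and 246 to 256 on the WT1-negative arrays. Biotin staining controls read 4399 to 4660 on the WT1-high arrays and 2872 to 3134 on the WT1-negative arrays, and Cy3 hybridisation controls read 2095 to 2233 against 1601 to 1695, so the array tables also differed in a measure that holds no mouse RNA. Its part in the results was not tested. Levels below are normalized log2 intensities, and a level at or under the background limit of 4.485 to 4.651 on these 6 arrays carries no measured amount.

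The populations lay far apart. The root mean square log2 distance between a WT1-high and a WT1-negative array was 1.229 to 1.335 over 9 pairs, against 0.359 to 0.433 within the WT1-high group and 0.264 to 0.404 within the WT1-negative group. By limma with Benjamini-Hochberg adjustment, 8764 of 14659 genes tested (1 probe a gene) had an adjusted p under 0.05, which is termed a call. This is 59.8% of genes, with 27.6% (4053) higher and 32.1% (4711) lower in WT1-high cells. With median scaling in place of quantile normalization 6830 genes were called. Calls of at least 2-fold covered 15.9% of genes (2334) on the higher side and 14.2% (2082) on the lower side. At 4-fold or more the higher side was the larger, with 931 genes (6.35%) against 533 (3.64%). In 68.7% of genes (10071) all arrays of one group lay above all of the other, so a separation of 3 from 3 arrays is the common state here. The median log2 difference over all genes was -0.07, with an interquartile range of -0.62 to 0.58. These shares are the background for each list of genes below. A gene measured in a single group passed the filter through that group, so its direction follows from the filter, and the counts of such lists are descriptions. The number of such genes is given below for some lists only. Of 1278 listed genes, 44 were not matched to the array and 186 were matched but did not pass the filter on low values.

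Probes detected in a single group were more often those of WT1-high cells. Over all 45281 probes, 1432 (3.16%, 1288 symbols) were detected on every WT1-high and no WT1-negative array, and 751 (1.66%, 685 symbols) on every WT1-negative and no WT1-high array. A further 29.6% were detected on all 6 arrays and 45% on none.

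**Figure D1:**
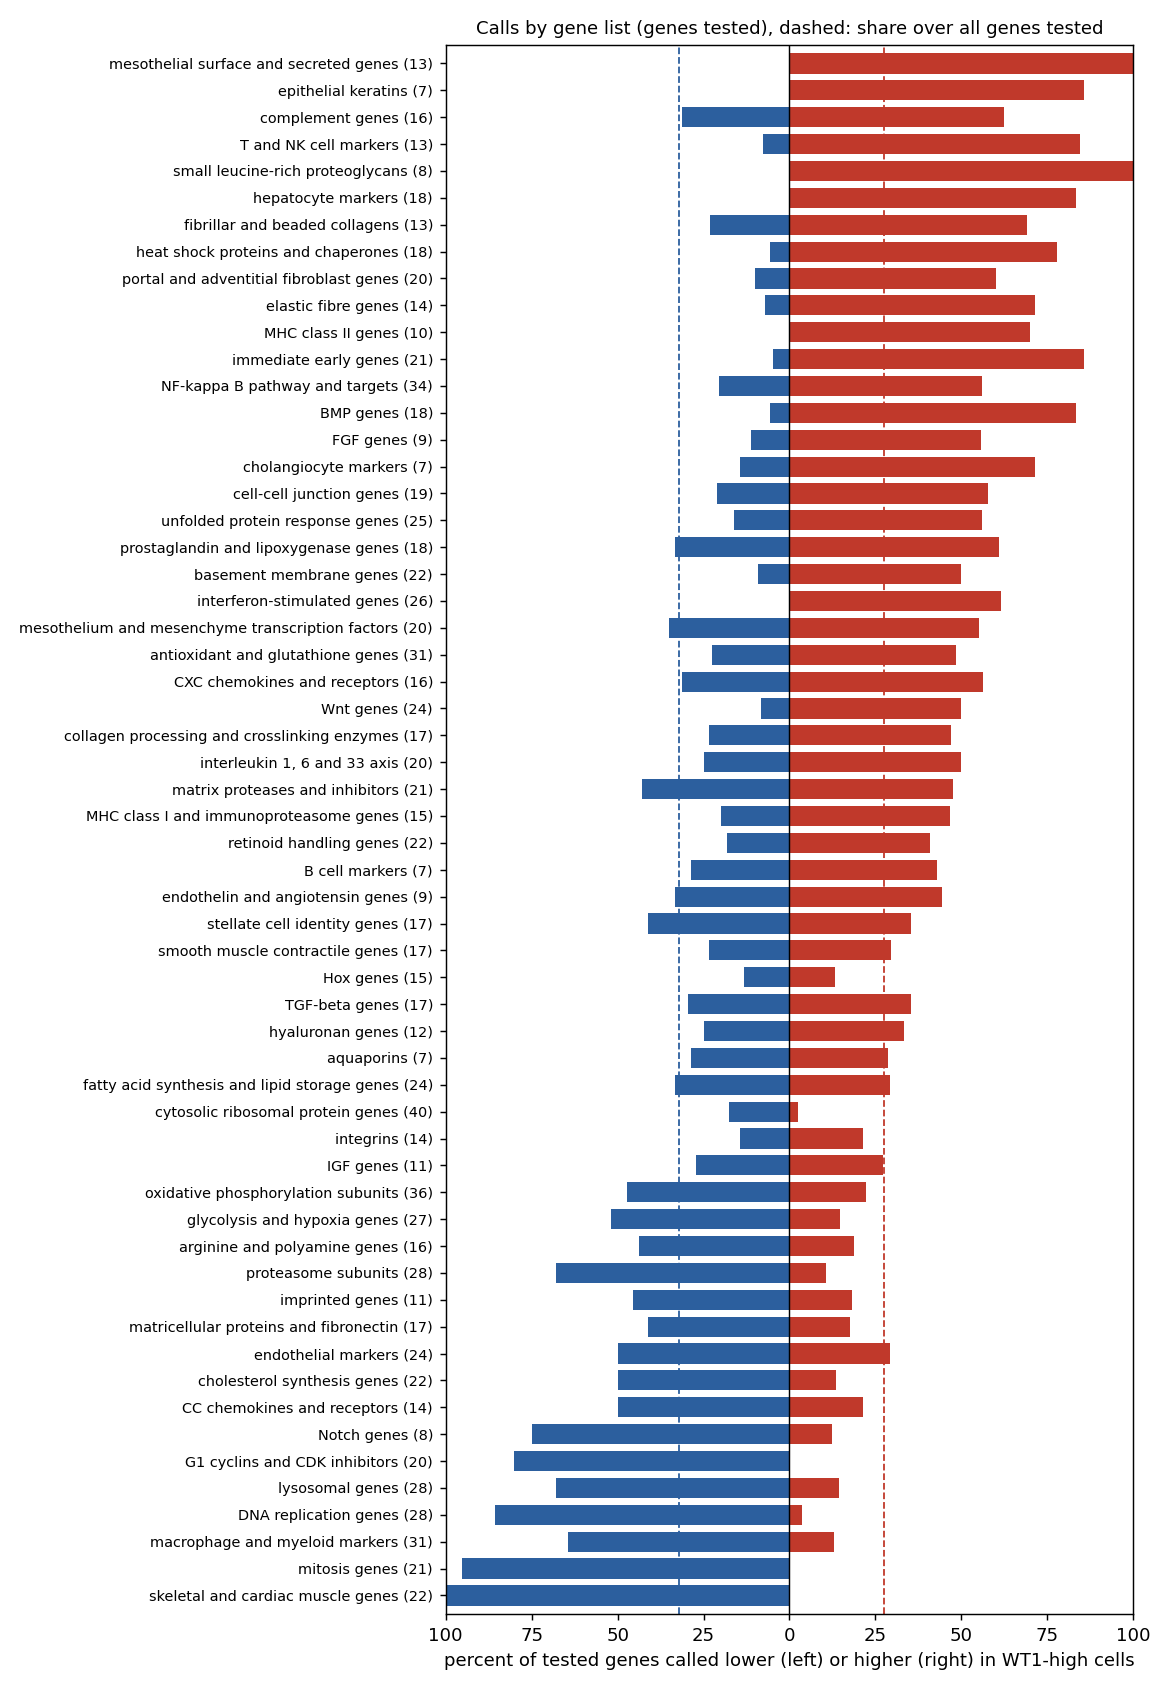
Share of the tested genes of each list (number tested in brackets) called lower (left, blue) or higher (right, red) in WT1-high cells by limma with a Benjamini-Hochberg adjusted p under 0.05, in percent, for lists with at least 7 tested genes, ordered by their median log2 difference. Dashed lines mark the shares over all 14659 genes, 32.1% lower and 27.6% higher. The 13 mesothelial genes and 8 small leucine-rich proteoglycans that were tested were called higher, and the 22 skeletal and cardiac muscle genes lower.

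Of the 15 largest rises, 7 belonged to the list of mesothelial surface and secreted genes and 2 to that of MHC class II genes. Dmkn, which encodes the secreted epithelial protein dermokine (chromosome 7), had log2 levels of 12.97, 13.07 and 13.08 on the WT1-high arrays and 4.24, 4.25 and 4.25 on the WT1-negative arrays. It was detected on no cultured array and stood at least 347-fold higher in WT1-high cells (limma, Benjamini-Hochberg adjusted p 7.14e-11). Prg4, encoding the lubricant proteoglycan lubricin, read 12.77, 12.51 and 12.53 against 4.30, 4.31 and 4.28, a rise of at least 256-fold. Krt14, a keratin of stratified epithelia, read 11.89, 12.19 and 12.38 against 4.38, 4.32 and 4.31, at least 188-fold. In these 3 genes the WT1-high arrays lay close together and the WT1-negative arrays were all under the background limit.

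Uroplakins, membrane proteins of urothelium and mesothelium, followed. Upk1b read 12.41, 12.53 and 12.25 on the WT1-high arrays and 5.49, 5.00 and 4.40 on the WT1-negative arrays, a log2 difference of 7.43 ± 0.24 (SE). Upk3b read 12.57, 13.15 and 12.40 against 5.95, 5.43 and 5.35, a difference of 7.13 ± 0.28 (SE). Groups were far apart in both genes, with the cultured arrays the more variable in Upk1b and WT1-high replicate 8 the brightest in Upk3b. Msln, encoding the mesothelial surface protein mesothelin (chromosome 17), read 11.38, 11.66 and 11.79 against 4.49, 4.63 and 4.22, with a difference of 7.16 ± 0.17 (SE; limma, Benjamini-Hochberg adjusted p 3.28e-10). The other genes among the 15 largest rises were Rarres2 (encoding the chemoattractant chemerin, 7.23), Cfb (complement factor B, 6.79), Igfbp5 (an insulin-like growth factor binding protein, 6.78), Gpm6a (a membrane glycoprotein, at least 100-fold), Has1 (hyaluronan synthase, at least 94.5-fold), Igk-C (the immunoglobulin kappa constant region, 6.52), H2-Aa (an MHC class II chain, at least 87.1-fold), Muc16 (a mesothelial mucin, at least 84.6-fold) and Cd74 (the class II invariant chain, 6.35), where values without the word fold are log2 differences. All 15 were called by limma.

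Of the 15 largest falls, 5 belonged to the list of skeletal and cardiac muscle genes and 4 to that of macrophage and myeloid markers. Fcrls, an Fc receptor-like scavenger receptor of mononuclear phagocytes, had log2 levels of 4.33, 4.20 and 4.48 on the WT1-high arrays and 11.43, 12.18 and 11.95 on the WT1-negative arrays, at least 158-fold lower in WT1-high cells. Myl1, a light chain of fast skeletal muscle myosin (chromosome 1), read 4.21, 4.25 and 4.26 against 11.04, 11.63 and 11.36, at least 111-fold lower (limma, Benjamini-Hochberg adjusted p 2.65e-10). Acta1, skeletal muscle actin, read 4.32, 4.23 and 4.22 against 10.44, 11.28 and 10.59, at least 74.6-fold lower. None of these 3 genes was detected on a WT1-high array, and each lay above 10 on every cultured array. Tnnc1, the troponin C of slow and cardiac muscle, was at least 70.7-fold lower, and Mylpf, the regulatory light chain of fast muscle myosin, at least 54.2-fold.

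H19, an imprinted non-coding RNA of fetal tissue, read 4.49, 5.67 and 4.57 on the WT1-high arrays against 10.34, 11.54 and 10.71 on the WT1-negative arrays, with WT1-high replicate 8 above the other 2. It fell by 5.95 on the log2 scale. Arg1, the enzyme that splits arginine into ornithine and urea, read 6.92, 6.85 and 7.76 against 12.92, 13.10 and 12.90 and fell by 5.80. A second probe of Arg1, not chosen by the rule of 1 probe a gene, read 5.36, 5.19 and 6.19 against 13.70, 13.49 and 13.64 and fell by 8.03, the largest fall of any probe. Mrc1, the macrophage mannose receptor, read 6.41, 6.39 and 6.62 against 12.19, 12.05 and 12.26 and fell by 5.69. Ednrb, the endothelin B receptor, read 6.40, 7.17 and 7.12 against 12.11, 12.37 and 12.64 and fell by 5.48 (limma, Benjamini-Hochberg adjusted p 1.2e-08). The rest were C1qa and C1qc (complement component 1q), with log2 differences of -5.44 and -5.25, F13a1 (the A subunit of clotting factor XIII, -5.17), Msr2 (a macrophage scavenger receptor family member, at least 34.8-fold lower), Myl4 (a myosin light chain of atrial and embryonic muscle, -5.08) and Arl11 (-5.02). All 15 were called and their groups did not overlap, which the rule required.

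**Figure D2:**
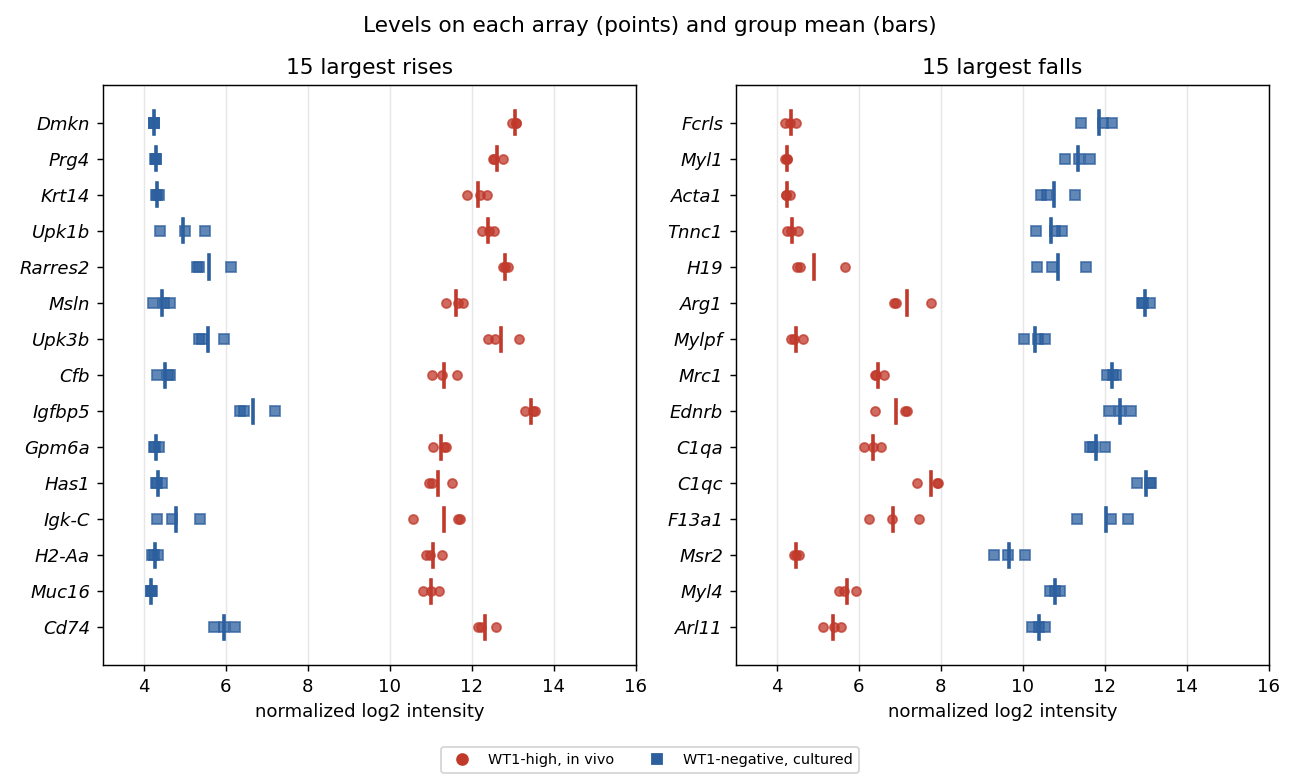
Normalized log2 intensity (x axis) on each WT1-high array (red circles) and each WT1-negative array (blue squares) of the 15 genes with the largest rise (left panel) and the 15 with the largest fall (right panel) in WT1-high cells, with group means as vertical bars. Dmkn lay at 12.97 to 13.08 on the WT1-high arrays and 4.24 to 4.25 on the cultured arrays, and Fcrls lay at 4.20 to 4.48 and 11.43 to 12.18.

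Mesothelial genes were higher as a group. Like the other lists, this list was written with earlier results of these data known, so its counts are a description. Of 15 mesothelial surface and secreted genes listed, 13 passed the filter and were called higher, with a median log2 difference of 6.82 beside -0.07 over all genes. Of these, 6 were detected on no WT1-negative array and had to be higher to pass. Their summed normalized level (unlogged) was 34840 to 40540 on the WT1-high arrays and 315.8 to 379.5 on the WT1-negative arrays. The smallest change belonged to Podxl (podocalyxin, a sialomucin of podocytes, vessels and mesothelium), with a log2 difference of 0.77, followed by Rspo1 (R-spondin, a Wnt enhancer), at least 3.54-fold higher, and Cd200 (an immunoglobulin family membrane protein) with 3.41, all 3 named after their values were seen. The 5 mesothelial genes that the study had named from these samples were Dmkn, Gpm6a, Msln, Upk1b and Upk3b. All 5 were called higher with a median of 7.16, and since the study chose them here, they are no independent evidence of the direction. Calb2, encoding calretinin, did not pass the filter on low values.

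Epithelial keratins moved with the mesothelial genes. Of 7 tested, 6 were called higher with a median log2 difference of 4.75. Of the 7, 3 were detected on no WT1-negative array and could pass the filter only through cells of injured liver. Krt19 was at least 64.6-fold higher, and Krt8, a keratin of simple epithelia, read 12.17, 11.89 and 12.32 on the WT1-high arrays and 7.47, 7.53 and 7.09 on the WT1-negative arrays, a difference of 4.76 ± 0.20 (SE). In cell-cell junction genes the direction differed between members, with 11 of 19 higher and 4 lower (median 0.88). The claudins of tight junctions Cldn10 (6.18) and Cldn15 (6.10) and the classical cadherin Cdh3 (4.57) rose on the log2 scale. Cldn5 (-2.49) and Cdh5 (-1.58), junction proteins of endothelium, were lower, as was Cdh13 (T-cadherin, at least 1.5-fold).

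Transcription factors of mesothelium and mesenchyme were divided, with 11 of 20 called higher, 7 lower (4 without WT1-negative replicate 14) and a median of 0.63. Bnc1 (basonuclin 1, 4.28), Klf4 (4.24) and Gata6 (3.78) had the largest log2 rises. Gata6, a zinc finger factor of mesoderm and endoderm, read 11.31, 11.30 and 11.25 against 7.49, 7.00 and 8.03, with no overlap between groups. Falls were led by Zeb2 (-1.76), a repressor of E-cadherin, Prrx1 (-1.51), a homeobox factor of mesenchyme, and Twist2 (at least 2.99-fold lower).

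Skeletal and cardiac muscle genes were lower. Of 25 listed, 22 passed the filter and were called lower, with a median log2 difference of -3.28. Of these, 16 were detected on no WT1-high array and had to be lower to pass. Without any one of the WT1-negative arrays 12 were called lower, as a gene detected on the cultured arrays alone then no longer met the filter of 3 arrays. Their summed normalized level was 10700 to 15150 on the WT1-negative arrays and 491.3 to 540.7 on the WT1-high arrays. The promoters below belong to the members of the largest falls whose 250 bases before the single RefSeq start (mouse GRCm38.p6) hold the muscle E-box CAGCTG, the letters bound by MyoD family factors, shown 5′ to 3′ on the strand of the gene with the motif in capitals.
Mylpf, chr7:127211358-127211607, plus strand: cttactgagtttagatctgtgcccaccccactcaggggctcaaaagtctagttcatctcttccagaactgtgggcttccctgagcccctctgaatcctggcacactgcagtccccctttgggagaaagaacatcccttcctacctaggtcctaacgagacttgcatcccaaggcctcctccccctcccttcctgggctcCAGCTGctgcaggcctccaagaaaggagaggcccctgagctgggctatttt
Myl1, chr1:66945057-66945306, minus strand: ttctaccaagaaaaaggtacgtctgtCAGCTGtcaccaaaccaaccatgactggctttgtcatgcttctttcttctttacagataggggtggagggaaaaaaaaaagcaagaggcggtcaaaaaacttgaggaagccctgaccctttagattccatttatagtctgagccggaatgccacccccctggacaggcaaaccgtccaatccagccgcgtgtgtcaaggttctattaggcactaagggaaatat
Acta1, chr8:123894776-123895025, minus strand: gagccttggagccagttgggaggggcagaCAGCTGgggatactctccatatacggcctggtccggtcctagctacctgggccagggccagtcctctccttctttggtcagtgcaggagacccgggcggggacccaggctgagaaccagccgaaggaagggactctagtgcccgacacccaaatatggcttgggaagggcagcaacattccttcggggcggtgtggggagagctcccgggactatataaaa
CAGCTG reads the same on both strands. It lay 45 bases before the start of Mylpf, 218 before that of Myl1 and 215 before that of Acta1. Of the 21 promoters RefSeq gave for 18 of the 22 genes, 9 (42.9%) held it, beside 13% of all 32851 mouse promoters of the same length. A match describes the letters only and is neither a bound site nor a cause.

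The leading muscle genes differed in whether WT1-high cells still had a measured level. Mylpf read 4.42, 4.34 and 4.64 on the WT1-high arrays and 10.02, 10.37 and 10.53 on the WT1-negative arrays, and Tnnc1 read 4.25, 4.35 and 4.53 against 10.33, 10.96 and 10.78. Both were at background in the in vivo cells and bright in all 3 cultured samples. Myl4 was different in that it was still measured in WT1-high cells, at 5.52, 5.65 and 5.94 against 10.67, 10.78 and 10.90. The smallest falls of the list were those of Myh1, Cacng1 and Myod1, named after their values were seen, and none of the 3 was detected on a WT1-high array. In bulk arrays such as these, fewer cells of a type and less RNA per cell cannot be told apart, here and for the cell type markers below.

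Smooth muscle contractile genes did not follow the skeletal ones. Of 17 tested, 5 were higher (3 without WT1-high replicate 8 or WT1-negative replicate 3), 4 lower and 8 not called (median 0.14). The falls included the best known myofibroblast genes. Acta2, alpha smooth muscle actin, read 11.50, 11.05 and 11.14 on the WT1-high arrays and 13.04, 12.87 and 13.12 on the WT1-negative arrays and fell by 1.78 ± 0.17 (SE; limma, Benjamini-Hochberg adjusted p 5.72e-06). Every cultured array was above every WT1-high array, and WT1-high cells still held a high level. Tagln (transgelin, -1.81) and Myl9 (a smooth muscle myosin light chain, -2.32) fell, and Actg2 (enteric smooth muscle actin) was at least 17.2-fold lower. Rises were led by Cald1 (caldesmon, at least 4.81-fold), Vcl (vinculin, 1.73) and Srf (the serum response factor, 1.20).

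**Figure D3:**
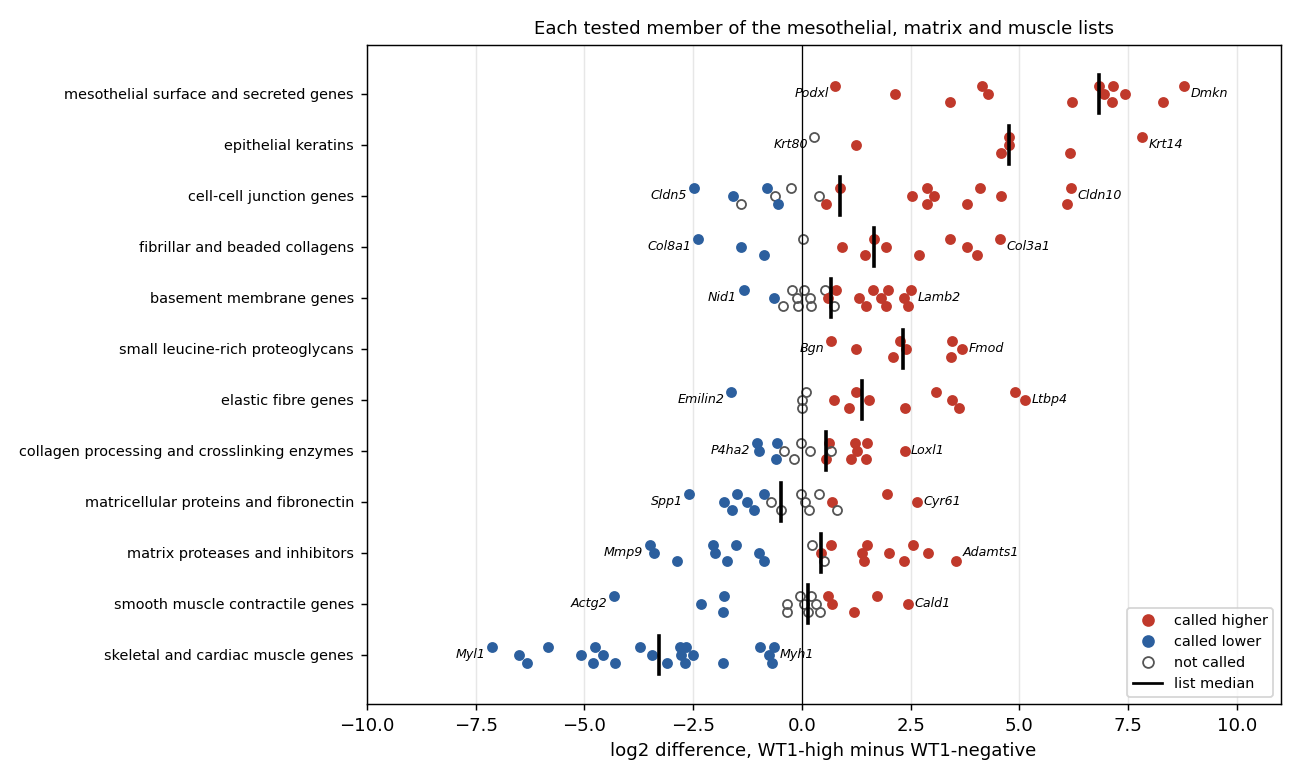
Log2 difference, WT1-high minus WT1-negative (x axis), of every tested member of the mesothelial, junction, matrix and muscle lists (rows), as red points where called higher, blue where called lower and open where not called, with list medians as black bars and the extreme members named. The mesothelial median was 6.82 and that of skeletal and cardiac muscle -3.28, with no member of either list on the other side of 0.

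Stellate cell identity genes gave no common direction. Of 17 tested, 6 were called higher, 7 lower and 4 not called, with a median of 0.18, which is near the background shares. Reln (reelin, a matrix glycoprotein of stellate cells) had log2 levels of 4.84, 4.82 and 5.03 on the WT1-high arrays and 4.84, 4.67 and 4.63 on the WT1-negative arrays and was not called (difference 0.18, limma, Benjamini-Hochberg adjusted p 0.433). Colec11, a soluble collectin, was at least 7.63-fold higher, Ecm1 (extracellular matrix protein 1) 2.07 higher and Sod3 (extracellular superoxide dismutase) 1.43 higher on the log2 scale. Below Ednrb, the largest falls were those of Nes (nestin, an intermediate filament protein), at least 4.41-fold lower, and Hgf (hepatocyte growth factor), which fell by 1.21. The defining stellate cell genes Lrat, Lhx2, Gfap, Vipr1 and Rgs5 did not pass the filter on low values, so the labelled cell type could not be checked by them. Summed levels of the 17 tested genes overlapped, with 7497 to 8516 on the WT1-high and 7237 to 9594 on the WT1-negative arrays. Ednrb made up a large part of the sum on the WT1-negative arrays and little of that on the WT1-high arrays. It read 12.11, 12.37 and 12.64 against 6.40, 7.17 and 7.12, so the overlap does not describe the other members.

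Portal and adventitial fibroblast genes were mostly higher, with 12 of 20 called higher, 2 lower and a median of 1.53. Dpt (dermatopontin, a collagen-binding matrix protein) was at least 26.4-fold higher. Eln (elastin) read 10.12, 10.93 and 10.42 against 5.23, 6.07 and 5.46, a log2 difference of 4.90 ± 0.27 (SE), and Il33 (an alarmin of the interleukin 1 family) read 9.94, 10.21 and 10.81 against 6.02, 5.08 and 6.27. In both genes no cultured array reached the WT1-high range. Gsn (gelsolin, an actin-severing protein, -2.83) and Thy1 (a surface glycoprotein of fibroblasts and T cells, -0.89) were lower. Summed levels of the list were 12080 to 14430 on the WT1-high and 3808 to 7140 on the WT1-negative arrays.

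Retinoid handling genes, which cover vitamin A storage and the making of retinoic acid, were higher in 9 and lower in 4 of 22 (median 0.33). The largest rise of the list was that of Rarres2, which encodes the chemoattractant chemerin and not a retinoid enzyme. The retinaldehyde dehydrogenases Aldh1a1 (6.04) and Aldh1a2 (2.47) followed. Aldh1a1 read 10.72, 10.64 and 10.67 on the WT1-high arrays and 4.92, 4.32 and 4.68 on the WT1-negative arrays. Rdh11 (a retinal reductase, -0.87) and Rxra (a retinoid X receptor, -0.77) fell on the log2 scale.

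The 4 fibrosis markers that the study named were divided. Col1a1 and Col1a2 encode the chains of type I collagen, the main collagen of scar. Col1a1 read 8.16, 9.13 and 8.93 on the WT1-high arrays and 9.79, 10.35 and 10.27 on the WT1-negative arrays, and fell by 1.40 ± 0.37 (SE; limma, Benjamini-Hochberg adjusted p 0.00669). Col1a2 read 9.56, 10.71 and 10.34 against 7.67, 7.00 and 7.86, a rise of 2.69 ± 0.32 (SE; limma, Benjamini-Hochberg adjusted p 2.88e-05). The groups were apart in both, in opposite directions, and WT1-high replicate 1 was the lowest of its group in each. Timp1, an inhibitor of matrix metalloproteinases, read 11.63, 11.77 and 13.05 against 10.66, 10.76 and 10.73 and rose by 1.43, with replicate 29 well above the other WT1-high arrays. Acta2 fell, as given above.

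Fibrillar and beaded collagens were mostly higher. Of 13 tested, both type I chains included, 9 were called higher and 3 lower, with a median of 1.65. Col3a1, type III collagen, read 10.71, 11.70 and 11.47 on the WT1-high arrays and 7.13, 5.75 and 7.36 on the WT1-negative arrays, a rise of 4.55 ± 0.37 (SE). Col6a1 and Col6a2, chains of the beaded type VI collagen, rose by 4.02 and 3.79. Col8a1, a short-chain collagen, read 4.88, 5.15 and 6.89 against 8.07, 7.81 and 8.22 and fell by 2.39, although WT1-high replicate 29 lay well above its group. Col12a1 fell by 0.88, a call that was lost without WT1-high replicate 1 (adjusted p 0.072, limma with Benjamini-Hochberg) and without WT1-negative replicate 3 (0.0717).

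Small leucine-rich proteoglycans coat and space collagen fibrils. Of 12 listed, the 8 that passed the filter were called higher, with a median of 2.33. Among the 8, 2 were detected on no WT1-negative array and could pass only through cells of injured liver. Fmod (fibromodulin) rose by 3.69 and Prelp by 3.45 on the log2 scale, and Podn (podocan) by at least 8.99-fold. Elastic fibre genes were called higher in 10 of 14 and lower in 1 (median 1.39). Ltbp4, a latent TGF-beta binding protein that assembles elastin, read 11.06, 11.27 and 11.00 against 5.84, 6.33 and 5.77, the largest difference of the list at 5.13, and Emilin2 was the member that fell (-1.62). Basement membrane genes were called higher in 11 of 22 and lower in 2 (median 0.67). The laminin chain Lamb2 (2.51) and the type IV collagen chain Col4a6 (2.35) rose, while Nid1 (nidogen) fell by 1.34 and Lama1 was at least 1.25-fold lower.

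Enzymes that process and crosslink collagen were higher in 8 and lower in 4 of 17 (median 0.55). Loxl1, a lysyl oxidase, rose by 2.36, Pcolce, which enhances the removal of the procollagen C-propeptide, by 1.49, and the transglutaminase Tgm2 by 1.47. The prolyl hydroxylase chain P4ha2 and the lysyl hydroxylase Plod1 fell (-1.04 and -0.98). Matricellular proteins and fibronectin leaned the other way, with 3 of 17 higher (5 without WT1-high replicate 1), 7 lower and a median of -0.49. Cyr61, a CCN family protein, rose by 2.64. Spp1 (osteopontin, -2.59), Thbs2 (thrombospondin 2, -1.78) and Wisp1 (a CCN family protein, -1.60) fell.

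Matrix proteases and their inhibitors divided by member. Of 21 tested, 10 were higher, 9 lower and the median was 0.43. Adamts1 (3.54), Adamts9 (2.91) and Mmp2 (gelatinase A, 2.55) rose. Mmp9 (gelatinase B, -3.50), Mmp13 (a collagenase, -3.39) and Plau (urokinase, -2.87) fell. Mmp9 read 6.96, 6.09 and 5.87 on the WT1-high arrays and 10.27, 9.71 and 9.43 on the WT1-negative arrays, without overlap. Among hyaluronan genes, 4 of 12 were higher and 3 lower (5 lower without WT1-high replicate 29, median 0.05). Has1, the synthase already named, read 10.95, 11.52 and 11.03 against 4.33, 4.30 and 4.44, whereas the hyaluronidases Hyal1 (-1.82) and Hyal2 (-1.36) fell. Most integrins were not called (3 of 14 higher, 2 lower or 1 without any one of the WT1-negative arrays, median -0.15), and the rises were those of Itgb4 (4.23), Itga3 (3.43) and Itga7 (1.59), which bind laminins.

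Genes that had also been followed by quantitative PCR formed a list of 15. Of these, 14 were tested here and Ccl12 was not matched to a probe by symbol or gene ID. The array holds 2 probes for a predicted gene described as similar to monocyte chemoattractant protein 5, a RefSeq synonym of Ccl12. They are not counted in the list, and both were called lower, with log2 differences of -6.25 and -6.76. Called higher were Upk3b, Cdh3, Timp1, Angptl7 (an angiopoietin-like secreted protein, 5.88), Smpd3 (a neutral sphingomyelinase, at least 42.9-fold) and Bmp1 (procollagen C-proteinase, 1.26). Those called lower included Col1a1, Arg1, Acta1, Mylpf and Mmp27 (a metalloproteinase, at least 3.67-fold). Reln was not called. As most of them had been chosen to span the differences on these arrays, the 12 calls in 14 are no independent evidence.

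Signalling pathways were read by their ligands, receptors and inhibitors. Among TGF-beta genes, the main profibrotic pathway of stellate cells, 6 of 17 were higher, 5 lower and the median was 0.10. Tgfb1, the chief ligand of the pathway, read 6.91, 7.00 and 6.78 on the WT1-high arrays and 8.52, 9.23 and 8.50 on the WT1-negative arrays and fell by 1.86. Tgfb2 rose by 2.56, as did the co-receptor Tgfbr3 (betaglycan) by 2.98 and the type I receptor Acvr1 by 1.71. Lrrc33, which holds latent TGF-beta on myeloid cells, fell by 3.28, and Inhba, the activin A subunit, fell by 1.43.

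BMP genes were higher in 15 of 18 and lower in 1, with a median of 1.05. Of the 18, 4 were detected on no WT1-negative array and could pass the filter only through cells of injured liver. The receptor Bmpr1a rose by 3.63, the inhibitor Chrd (chordin) by 2.96 and the ligand Bmp4 by 2.64. Bmpr1a read 9.42, 9.32 and 8.99 against 5.59, 5.27 and 5.97, with no overlap. Grem1, a secreted BMP inhibitor, was the exception (it no longer met the filter without any one of the WT1-negative arrays), at least 4.07-fold lower. Hedgehog genes passed the filter in 6 cases, of which 4 were higher and none lower (median 1.68). They were the co-receptor Cdon (3.40), the signal transducer Smo (2.31) and the transcription factors Gli2 (2.14) and Gli3 (1.22, named after its value was seen). Smo read 8.82, 8.75 and 8.20 against 6.28, 6.34 and 6.21. The Hedgehog ligands did not pass the filter.

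Wnt genes were higher in 12 of 24 and lower in 2 (median 0.56). Of the 24, 6 were detected on no WT1-negative array and could pass the filter only through cells of injured liver. The inhibitor Sfrp2 was at least 17.6-fold higher, the ligand Wnt2 at least 10.1-fold, and the inhibitor Dkk3 rose by 3.29. The falls were those of Rspo3 (-1.61) and Wnt6, a ligand that was at least 1.15-fold lower. FGF genes were higher in 5 of 9 and lower in 1 (median 0.99), with Fgf1 (4.28) and the receptor Fgfr2 (2.40) rising and Fgf7, keratinocyte growth factor (-1.93), falling. Of 6 PDGF genes 2 were higher and 1 was lower (2 without WT1-high replicate 29 or WT1-negative replicate 14, median 0.02). The receptor Pdgfra rose by 1.88 while Pdgfrb, the receptor through which PDGF drives stellate cell division, read 4.99, 4.98 and 5.08 against 5.99, 5.89 and 6.59 and fell by 1.14.

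IGF genes gave 3 higher and 3 lower of 11 (median -0.21). The binding proteins Igfbp5 and Igfbp6 rose by 6.78 and 4.10, whereas the ligands Igf2 (-4.61) and Igf1 (-2.54) fell. Igf2 read 6.22, 6.00 and 6.68 on the WT1-high arrays and 10.65, 10.98 and 11.08 on the WT1-negative arrays. Igf2 lies beside H19 in an imprinted domain. In the list of imprinted genes, 2 of 11 were higher and 5 lower (median -0.47), with Peg3 (-1.88) falling. Grb10 (0.86) and Ndn (0.86) were called higher, and both calls were lost under median scaling (adjusted p 0.0604 and 0.0508, limma with Benjamini-Hochberg). Notch genes were lower in 6 of 8 and higher in 1 (median -0.97). The ligand Jag1 was at least 1.9-fold higher, while the receptor Notch4 (-1.69) and the target repressors Hey1 (-1.06) and Hes1 (-1.03) fell.

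Endothelin and angiotensin genes control the contraction of stellate cells. Of 9 tested, 4 were higher and 3 lower (median 0.23). Among the 9, 4 were detected on no WT1-negative array and could pass the filter only through cells of injured liver. The ligand Edn2 was at least 14.9-fold higher and the angiotensin receptor Agtr1a rose by 3.62, whereas the ligand Edn1 (-2.52) and the receptors Ednrb (-5.48) and Ednra (-1.34) fell. Ednra read 4.79, 5.62 and 5.54 against 6.59, 6.09 and 7.29. Bulk arrays do not show whether the transcripts of these ligands and receptors came from the same cells. Prostaglandin and lipoxygenase genes were higher in 11 of 18 and lower in 6 (median 0.70). Among the 18, 4 were detected on no WT1-negative array and 2 on no WT1-high array. Hpgd, which inactivates prostaglandins, rose by 4.65, Ptgis (prostacyclin synthase) by 3.79, and Ptgs1, constitutive cyclooxygenase, by 3.56. Ptgds2 (-4.21), Ltc4s (leukotriene C4 synthase, -3.89) and Tbxas1 (thromboxane synthase, -3.10) fell. Of 7 aquaporins, the water channel Aqp1 rose by 3.98 and Aqp5 by at least 6.18-fold, and Aqp9 fell by 2.65. Aqp11 was called lower as well (-0.35), but not without any single one of the 6 arrays (adjusted p 0.0691 to 0.178, limma with Benjamini-Hochberg).

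Immune genes were divided by family. MHC class II genes present peptides to helper T cells, and 7 of 10 were higher with none lower (median 1.38). Of the 10, 4 were detected on no WT1-negative array and could pass the filter only through cells of injured liver. H2-Aa read 10.89, 11.28 and 10.97 on the WT1-high arrays and 4.25, 4.21 and 4.35 on the WT1-negative arrays, and H2-Eb1 rose by 6.21. The invariant chain Cd74 read 12.15, 12.60 and 12.22 against 5.71, 5.96 and 6.23. The cultured cells were thus at background for H2-Aa and well under the in vivo cells for Cd74. MHC class I and immunoproteasome genes were higher in 7 and lower in 3 of 15 (median 0.37), led by H2-K1 (3.30).

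Complement genes had a median of 3.07, with 10 of 16 higher and 5 lower. Cfb read 11.27, 11.03 and 11.64 against 4.65, 4.59 and 4.33. C3, the central component, read 13.38, 13.61 and 13.30 against 8.35, 7.04 and 8.42 and rose by 5.50, and Cd55, which protects cells from complement, rose by 5.75. The falls were those of the 1q chains, with C1qb at -4.95 beside C1qa and C1qc, and of Cfp and C5ar1. These are genes of macrophages and neutrophils, named in part after their values were seen.

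Chemokines were divided too. CC chemokines and receptors were lower in 7 of 14 and higher in 3 (median -0.88), with Ccl6 (-4.76) and Ccl3 (-3.71) among the falls. Ccl5, which attracts T cells, rose, at 9.19, 9.55 and 10.45 on the WT1-high arrays against 4.55, 4.47 and 5.10 on the WT1-negative arrays. CXC chemokines and receptors were higher in 9 of 16 and lower in 5 (median 0.60). Cxcl13, which attracts B cells, was at least 42.7-fold higher, Cxcl10 rose by 2.41 and Cxcl9 by 2.00. Cxcl4, or platelet factor 4 (-4.79), the receptor Cx3cr1 (-2.84) and Cxcl12 (-1.70) fell. The call of Cxcl12 was lost without WT1-high replicate 1 (adjusted p 0.0763) or WT1-negative replicate 14 (0.0728, limma with Benjamini-Hochberg).

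NF-kappa B pathway genes and targets were higher in 19 of 34 and lower in 7 (median 1.06). Tnfaip3, an inhibitor that the pathway itself induces, read 11.23, 11.23 and 11.10 against 7.44, 7.12 and 7.03 and rose by 3.99. Ptgs2, inducible cyclooxygenase, was at least 8.52-fold higher and Nfkbiz rose by 2.70, while the cytokine Tnf (-1.52) and the receptor Tlr4 (-1.36) fell. In the interleukin 1, 6 and 33 axis, 10 of 20 were higher and 5 lower (median 0.44). Il33 (4.53), Il6 (3.47) and the decoy receptor Il1r2 (2.83) rose, and Il1a (-3.43), Osm (oncostatin M, -3.06) and the receptor Il6ra (-1.41) fell.

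Interferon-stimulated genes were called higher in 16 of 26 and lower in none, with a median of 0.66. Gbp2, a guanylate-binding GTPase induced by interferon, read 12.05, 12.49 and 11.84 on the WT1-high arrays and 8.03, 8.21 and 8.37 on the WT1-negative arrays and rose by 3.93 ± 0.22 (SE; limma, Benjamini-Hochberg adjusted p 9.1e-08). Oasl2 (3.89) and Oasl1 (2.68), relatives of the antiviral oligoadenylate synthetases, followed. The 250 bases before the start of Gbp2 are shown because they hold the interferon-stimulated response element, in capitals (GRCm38.p6, RefSeq, searched on both strands).
Gbp2, chr3:142620413-142620662, plus strand: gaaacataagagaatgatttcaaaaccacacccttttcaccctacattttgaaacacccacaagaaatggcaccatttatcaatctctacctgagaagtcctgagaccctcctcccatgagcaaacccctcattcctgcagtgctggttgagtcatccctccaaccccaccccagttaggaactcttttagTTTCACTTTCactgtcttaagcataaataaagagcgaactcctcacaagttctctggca
The match was on the opposite strand, 49 bases before the start. Of 28 promoters of the list, 10 (35.7%) held the motif, beside 2.98% of all promoters. For the NF-kappa B site and the promoters of its list, the counts were 2 of 37 (5.41%) beside 0.356%.

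Stress and immediate early genes were mostly higher in the freshly isolated cells. Immediate early genes, transcription factors and regulators that respond quickly to growth factors and stress, were called higher in 18 of 21 and lower in 1 (median 1.09). Klf4, a member of this list too, rose by 4.24 on the log2 scale. Fosb, a subunit of the AP-1 factor, read 13.03, 13.16 and 12.70 on the WT1-high arrays and 8.76, 9.32 and 8.61 on the WT1-negative arrays and rose by 4.07. The nuclear receptor Nr4a2 rose by 3.17, with 8.93, 9.69 and 8.15 against 5.85, 5.67 and 5.73. The groups were clear of each other in each, and Egr2 was the member that fell (-1.22).

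Heat shock proteins and chaperones were higher in 14 of 18 and lower in 1 (median 1.63). The lower gene, Hspa9 (-0.43), lost its call under median scaling, cyclic loess and without WT1-high replicate 1 or 8 or WT1-negative replicate 3 or 14 (adjusted p 0.0612 to 0.129, limma with Benjamini-Hochberg). Hspa1a, the inducible form of the chaperone HSP70, read 10.35, 10.47 and 10.11 on the WT1-high arrays and 4.94, 5.11 and 5.39 on the WT1-negative arrays and rose by 5.16 ± 0.18 (SE; limma, Benjamini-Hochberg adjusted p 2.98e-09). It has a near-identical copy, Hspa1b, whose transcript its probe may also read. Hspb1, a small heat shock protein, read 12.04, 12.19 and 12.21 against 7.70, 8.70 and 7.53. Both promoters below hold heat shock element letters (GAANNTTC or TTCNNGAA, in capitals), and are shown as those of the list's leading members with a single start in RefSeq (GRCm38.p6, both strands searched).
Hspa1a, chr17:34972157-34972406, minus strand: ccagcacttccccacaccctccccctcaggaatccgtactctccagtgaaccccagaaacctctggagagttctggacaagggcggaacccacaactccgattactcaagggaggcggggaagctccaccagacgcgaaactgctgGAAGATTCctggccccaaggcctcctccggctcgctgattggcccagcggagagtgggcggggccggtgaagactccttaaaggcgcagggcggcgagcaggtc
Hspb1, chr5:135887669-135887918, plus strand: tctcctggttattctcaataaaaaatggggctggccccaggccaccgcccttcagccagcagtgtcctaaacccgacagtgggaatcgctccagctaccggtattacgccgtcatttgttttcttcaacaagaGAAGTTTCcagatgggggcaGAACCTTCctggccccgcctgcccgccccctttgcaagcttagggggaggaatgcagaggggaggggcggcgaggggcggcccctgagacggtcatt
The nearest match lay 96 bases before the start of Hspa1a and 89 before that of Hspb1, which held 2 matches. In the list 7 of 17 promoters (41.2%) held the letters, beside 12.8% of all promoters. Unfolded protein response genes were higher in 14 and lower in 4 of 25 (median 0.76), with Hspa5, the chaperone BiP of the endoplasmic reticulum, rising by 3.94 and Trib3 (-2.57) falling.

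Cell division genes were lower. Of 21 mitosis genes, 20 were called lower and none higher, with a median of -2.74. Top2a, the topoisomerase that untangles DNA in dividing cells, read 4.61, 5.51 and 4.76 on the WT1-high arrays and 8.65, 8.69 and 8.51 on the WT1-negative arrays and fell by 3.65 ± 0.25 (SE; limma, Benjamini-Hochberg adjusted p 4.18e-07). Birc5 (survivin, -3.97) and Plk1 (polo-like kinase 1, -3.50) fell as well. DNA replication genes were lower in 24 of 28, with a median of -1.59. Tk1 (thymidine kinase) and Gins1 (a subunit of the replicative helicase) each fell by 3.28. Pcna, the sliding clamp of DNA polymerase, was the member called higher, by 1.79, at 6.90, 6.98 and 7.29 against 5.57, 4.91 and 5.33.
The Top2a promoter is shown because it holds the cell cycle homology region letters TTTGAA, in capitals (both strands searched, GRCm38.p6, RefSeq).
Top2a, chr11:99024190-99024439, minus strand: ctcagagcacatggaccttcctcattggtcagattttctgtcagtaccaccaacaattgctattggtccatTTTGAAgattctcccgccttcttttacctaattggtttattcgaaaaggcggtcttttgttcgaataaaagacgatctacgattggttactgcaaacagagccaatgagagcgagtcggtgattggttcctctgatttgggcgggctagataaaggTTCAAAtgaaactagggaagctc
It held 2 matches, 1 on each strand, the nearer 17 bases before the start. Of 20 promoters of the mitosis list 8 (40%) held the letters, beside 16% of all promoters. Cyclins and inhibitors of the first gap phase were lower in 16 of 20 and higher in none (median -1.06), both activators such as E2f1 (-1.90) and inhibitors such as Cdkn2a (-1.39), named after its value was seen.

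**Figure D4:**
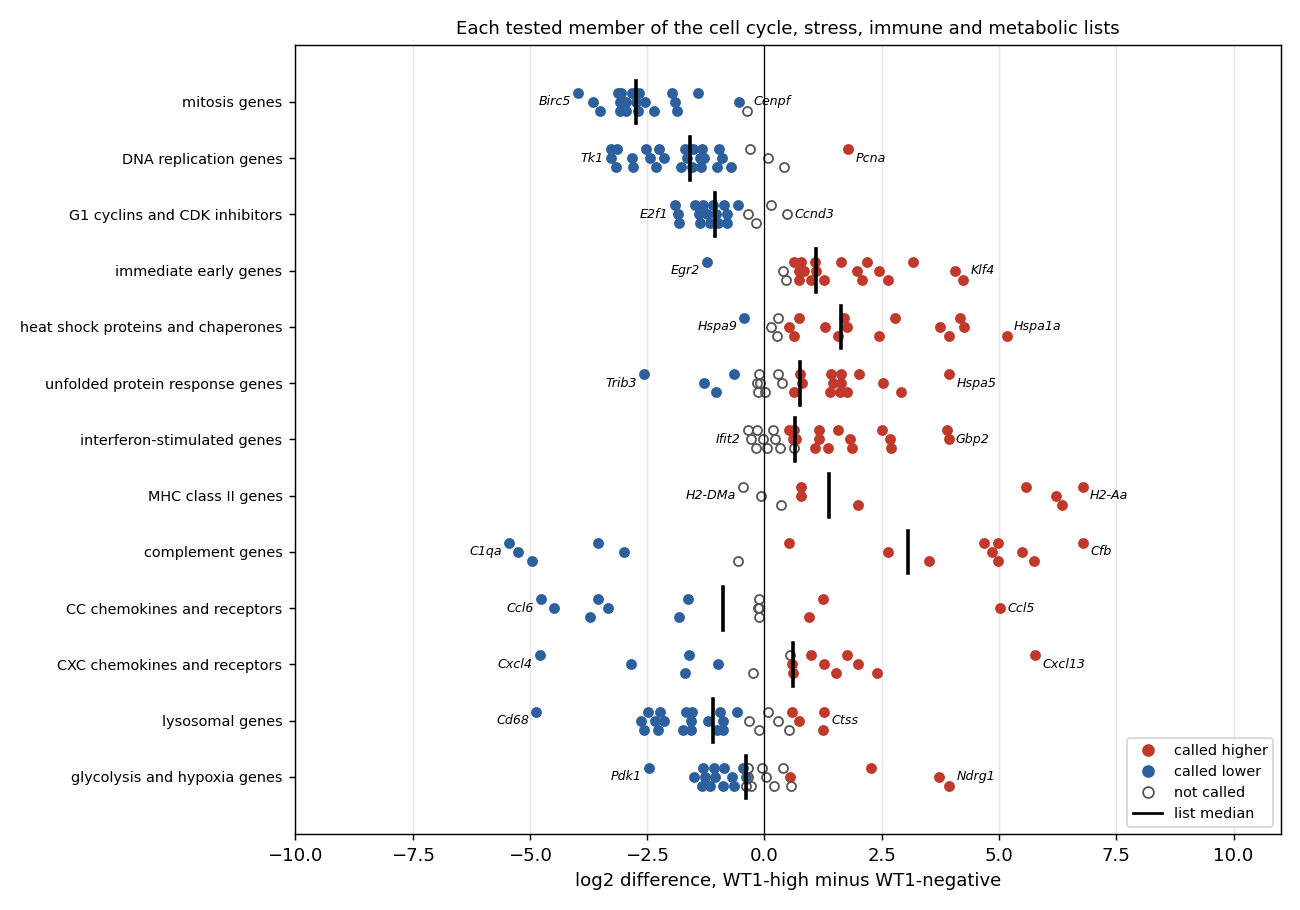
Log2 difference, WT1-high minus WT1-negative (x axis), of every tested member of the cell cycle, stress, immune and metabolic lists (rows), as red points where called higher, blue where called lower and open where not called, with list medians as black bars and the extreme members named. Mitosis genes had a median of -2.74 and heat shock genes one of 1.63, and complement genes ran from -5.44 (C1qa) to 6.79 (Cfb).

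Lysosomal genes were lower in 19 of 28 and higher in 4 (median -1.10). Cd68, a lysosomal membrane protein rich in macrophages, read 8.14, 8.00 and 7.26 on the WT1-high arrays and 12.57, 12.75 and 12.69 on the WT1-negative arrays and fell by 4.87, followed by the cathepsins Ctsh (-2.62) and Ctsc (-2.56). Ctss (cathepsin S, 1.28) and Npc2, a cholesterol carrier (1.25), rose. Proteasome subunits were lower in 19 of 28 and higher in 3 (median -0.47), but under median scaling in place of quantile normalization 6 were lower.

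Energy metabolism genes leaned lower. Glycolysis and hypoxia genes were lower in 14 of 27 and higher in 4 (median -0.39). Gapdh (-1.50) and Pdk1, an inhibitory kinase of pyruvate dehydrogenase (-2.47), fell, while Ndrg1 (3.94), Egln3 (3.72) and Car9 (2.28) rose. Cholesterol synthesis genes were lower in 11 of 22 and higher in 3 (median -0.58), with the mevalonate pathway enzymes Mvd (-1.69) and Mvk (-1.61) falling. Oxidative phosphorylation subunits were lower in 17 and higher in 8 of 36 (median -0.36), and the largest rises, of Atp5a1 (2.56), Ndufb9 (2.22) and Sdhd (2.13), exceeded any fall of the list.

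Lipid genes were mixed, with 7 of 24 fatty acid synthesis and storage genes higher and 8 lower (median -0.07). The higher count was 3 without WT1-high replicate 29 or WT1-negative replicate 14, and 4 without WT1-high replicate 1, WT1-high replicate 8 or WT1-negative replicate 11. Mgll, which releases fatty acids from monoglycerides, rose by 3.97, and Gpr120, a fatty acid receptor, by at least 4.66-fold. Fabp5, a fatty acid carrier (-2.73), and Pparg, a regulator of fat storage (-1.95), fell. Antioxidant and glutathione genes were higher in 15 of 31 and lower in 7 (median 0.60), with the glutathione transferases Gstt1 (3.65) and Gsta3 (3.37) rising and Hmox1 (haem oxygenase, -2.25) falling. Arginine and polyamine genes were lower in 7 of 16 and higher in 3 (median -0.44). Beside Arg1, Paox (polyamine oxidase) and Smox (spermine oxidase) fell (-2.16 and -1.71), whereas Oat (ornithine aminotransferase) rose by 1.27. The families with the fewest calls were cytosolic ribosomal protein genes, with 8 called of 40 (1 higher, 7 lower or 11 without WT1-high replicate 29, median -0.09), and Hox genes, with 4 called of 15 (2 higher, or 4 without WT1-high replicate 29 and 1 without replicate 8, and 2 lower, median 0.12), in which Hoxa5 rose by 1.30 and Hoxb5 fell by 1.37.

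Markers of other liver cells moved with the groups. Macrophage and myeloid markers were lower in 20 of 31 and higher in 4 (median -2.28). Their summed normalized level was 83560 to 89990 on the WT1-negative arrays and 11580 to 16980 on the WT1-high arrays. On the WT1-high arrays 2 of the 31 were detected nowhere, and the 4 that rose included S100a9 (2.53) and S100a8 (1.72), calprotectin subunits of neutrophils and monocytes. C1qa, C1qc, Mrc1, Fcrls, Cd68, Ccl6, Cxcl4 and Arg1 are all genes that macrophages express strongly, and their place among the falls stands beside this sum. Its part in those results was not tested.

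T and NK cell markers were higher in 11 of 13 and lower in 1 (median 2.52). Summed levels were 2208 to 3663 on the WT1-high and 847.6 to 991.2 on the WT1-negative arrays, and 7 of the 13 were detected on no cultured array, so they had to be higher to pass the filter. Cd8b1, a chain of the CD8 co-receptor, was at least 12.7-fold higher and Klrd1 (CD94) at least 9.12-fold, while Cd4 and Cd8a did not pass the filter. B cell markers gave 3 higher and 2 lower of 7 (median 0.25). Cd22, a lower gene, lost its call without any single array of the 6 (adjusted p 0.0663 to 0.0947 by limma with Benjamini-Hochberg). Summed levels of the list were 207.4 to 247.8 on the WT1-high arrays against 379.2 to 443.3 on the cultured ones. Blnk, the other lower gene, fell by 3.16 and made up a large part of the sum on the cultured arrays. It read 5.27, 4.74 and 4.44 on the WT1-high arrays against 7.96, 7.79 and 8.17 on the WT1-negative arrays. Cd79b (1.09) was among the higher genes of the list, and Igk-C was among the largest rises. Igk-C read 10.56, 11.67 and 11.70 on the WT1-high arrays against 5.37, 4.33 and 4.68 on the WT1-negative arrays. The high levels of Igk-C, Ccl5, Cxcl13 and the class II genes stand beside the lymphocyte markers, whose part in them was not tested.

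Hepatocyte markers were higher in 15 of 18 and lower in none (median 2.06). Ttr (transthyretin) read 6.99, 9.70 and 9.41 on the WT1-high arrays and 5.60, 4.28 and 5.17 on the WT1-negative arrays, and Apoa2 (apolipoprotein A-II) read 6.92, 8.81 and 9.07 against 4.97, 4.87 and 4.45. WT1-high replicate 1 lay well below the rest of its group in both genes and above every cultured array. Summed levels were 7790 to 12950 against 4514 to 5272, and 8 of the 18 were detected on no cultured array, so they had to be higher to pass. Their part in the rise of complement and other liver-secreted genes was not tested. Alb did not pass the filter.

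Endothelial markers were lower in 12 of 24 and higher in 7 (median -0.52), with sums of 6077 to 6886 on the WT1-high and 7446 to 8817 on the WT1-negative arrays. Fcgr2b, a receptor of sinusoidal endothelium and myeloid cells, fell by 4.20. Emcn (endomucin, -2.95) and Stab1, a scavenger receptor of sinusoids and macrophages (-2.26), fell as well. Cd34 (4.51), which fibroblasts and mesothelium also express, Clec4g (2.76) and Esam (2.62) rose. Cholangiocyte markers were higher in 5 of 7 and lower in 1 (median 0.95). Krt19 and Krt7 (4.75), the leading rises, are shared with mesothelium, and the list's summed level was lower on the WT1-high arrays (4777 to 5409) than on the cultured arrays (6469 to 7228), where Spp1 was bright. Of 4 tested sex-linked genes, all on the Y chromosome, 3 were called higher (1 under median scaling, median 0.64).

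**Figure D5:**
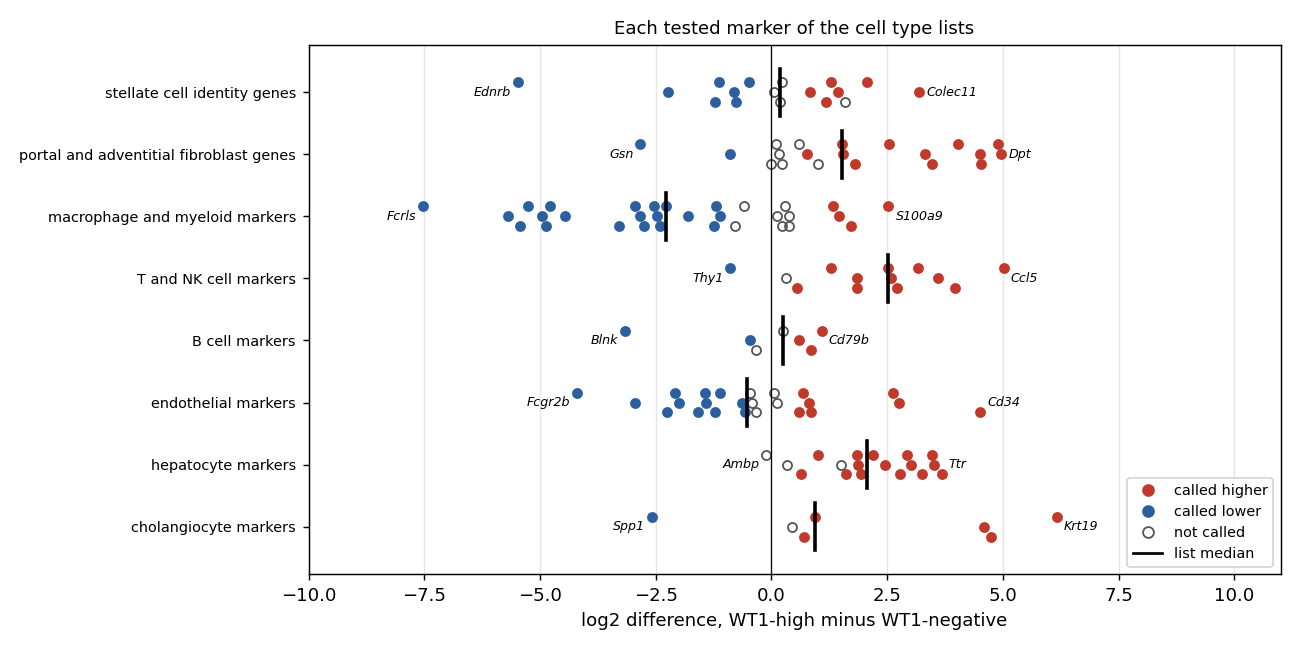
Log2 difference, WT1-high minus WT1-negative (x axis), of every tested marker of 8 cell types (rows), as red points where called higher, blue where called lower and open where not called, with list medians as black bars and the extreme markers named. Medians were -2.28 for macrophage and myeloid, 2.52 for T and NK cell, 2.06 for hepatocyte and 0.18 for stellate cell markers.

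Different probes of the same gene did not always move together. Of 4177 genes with more than 1 tested probe, 342 had probes called in opposite directions. The direction given for a member of a list is that of its chosen probe, and other probes of most members are not given. The widest gaps by rule were in Rarres2, Nme7 and B3gnt9. In Rarres2 (chromosome 6), 2 probes rose by 7.86 and 7.23 on the log2 scale while the third fell by 0.89 (a call lost without WT1-high replicate 1 or 8 or WT1-negative replicate 11, adjusted p 0.0799 to 0.0909, limma with Benjamini-Hochberg), with levels of 4.32, 4.44 and 5.56 on the WT1-high arrays against 5.47, 5.95 and 5.57 on the WT1-negative arrays, which is close to background. Nme7 (chromosome 1), a nucleoside diphosphate kinase family member, had probes from 4.96 higher to 0.47 lower, the latter a call lost under median scaling (adjusted p 0.207) and without 4 of the 6 arrays in turn (0.0505 to 0.0873, limma with Benjamini-Hochberg). B3gnt9 (chromosome 8) had 2 probes higher, by 3.83 and 2.98, and 2 lower, by 1.51 and 0.91. The deposited tables do not place these probes within transcripts, so a direction for Nme7 or B3gnt9 as a gene is not given.

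WT1-intermediate cells also came from injured livers, and their mean log2 levels are given beside the 2 groups, which share the WT1-negative arrays as a reference. Dmkn had means of 13.04 ± 0.06, 12.12 and 4.25 ± 0.01 in WT1-high, WT1-intermediate and WT1-negative cells (SD where given, n = 3 each). Msln had 11.61 ± 0.21, 10.99 and 4.45 ± 0.21, and Acta1 had 4.26 ± 0.06, 4.28 and 10.77 ± 0.45. The gap between WT1-high and WT1-intermediate means was 0.92 on the log2 scale for Dmkn (limma, Benjamini-Hochberg adjusted p 0.0159). Msln (0.62, adjusted p 0.0755) and Acta1 (-0.02, adjusted p 0.976) were not called. These tests took the arrays as unpaired, although replicate numbers recur between these groups, and a paired test was not run. The missing call of Msln therefore does not show equal levels. Msln read 11.38, 11.66 and 11.79 on the WT1-high arrays and 10.82, 11.14 and 11.01 on the WT1-intermediate arrays, without overlap. Arg1 had 7.18 ± 0.50, 10.83 and 12.97 ± 0.11, Top2a 4.96 ± 0.48, 4.89 and 8.62 ± 0.10, and Cd68 7.80 ± 0.47, 9.91 and 12.67 ± 0.09. For Arg1 and Cd68 the intermediate cells lay between the other groups.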

How the data were processed

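Each of 9 samples was profiled on its own Illumina bead array, of which 3 WT1-high and 3 WT1-negative arrays were compared. Groups were taken from the labels. The deposited values are the authors' probe profiles, as linear intensity per probe, neither background corrected nor normalized, each with a deposited detection p-value (the share of 936 negative control probes brighter than the probe). A joined table held the same values (largest difference 0) and was not used. A column of the in vivo table numbered 29 was taken as WT1-intermediate replicate 30, the label left without a column.

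Following the outline of the study's methods, intensities of all 9 arrays were corrected by negative controls, quantile normalized and log2 transformed with neqc (offset 16) of limma 3.58.1 in R 4.3.3. This fits the same overall distribution to every array, so differences are relative to the rest of the array. A probe was tested if at least 3 of the 9 arrays detected it (p under 0.05), which held for 20573 of 45281. A linear model of the 3 group means was fitted (6 residual, 5.19 prior degrees of freedom) and WT1-high minus WT1-negative was tested by limma's moderated two-sided test, adjusted by Benjamini-Hochberg over all probes. The gene value is that of its tested probe with the highest mean over 9 arrays. Where no array of the dimmer group detected the probe, the fold was set against the background limit of that group and is a minimum, written "at least". Errors are the SE of the fit or the SD over 3 arrays. The number of arrays limits the precision.

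Named genes are the 15 largest rises and falls among called genes whose groups do not overlap (ranked by the bound where there is one, clone and LOC names skipped), the genes of 3 lists named by the study, up to 3 rises and 3 falls a list, a list's first gene where not called, and the 3 genes with the widest gap between probes called in opposite directions. Members and lists were chosen with earlier results of these data known. Lists are described by counts and medians, with no set test. Entries were matched by symbol (1205), other symbol (19) or Entrez gene ID (10).

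Replicate numbers recur between WT1-high and WT1-intermediate arrays. Deviations from group means correlated at 0.35 for both arrays numbered 1, 0.34 for those numbered 8 and 0.47 for 29 with 30, and between -0.39 and 0.03 otherwise. WT1-high and WT1-negative arrays share no number. The steps were tested on simulated data. Alternatives were other normalizations, background corrections, filters, arrays, blocks, weights, a test against 2-fold and leaving out each of the 6 arrays. Promoters are the 250 bases before RefSeq starts on GRCm38.p6 (32851 starts of 27025 genes). Sequences of array probes were not used here, and some genes that the naming rule selects are not reported here.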

Additional observations from a re-analysis of the deposited data

How the results depend on the processing

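Counts of calls over genes stayed within 1.5 times of 8764 (and over probes within 1.5 times of 12258) under median scaling, cyclic loess, no background correction, an offset of 50, no filter, detection on all arrays of 1 group, the 6 compared arrays alone, both replicate blocks and array weights. The share called depended on the filter, since with no filter 8582 of 30869 genes were called. Requiring detection on all 9 arrays left 7970 probes called of 12749, with 3370 probes and 2644 genes higher, since fewer probes were tested. Testing against a 2-fold change by limma's treat left 2952 probes (1678 higher, 1274 lower) and 2205 genes (1286 higher, 919 lower). Leaving out each array in turn gave 10171 to 11425 probes (4716 to 5174 higher, 5455 to 6251 lower) and 7332 to 8174 genes (3540 to 3837 higher, 3792 to 4337 lower). The random replicate block (correlation 0.38) gave 8804 genes and 12295 probes, and the replicate block with 29 and 30 as 1 animal (correlation 0.3) gave 12246 probes. Of the named genes' calls the blocks changed that of Aqp11 alone (adjusted p 0.0602 and 0.0566, limma with Benjamini-Hochberg), and they acted only through the WT1-intermediate arrays.

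Median scaling kept 6755 of the 8764 gene calls, lost 2007 and turned 2, and the cause was not tested. The share of gene calls that were higher was 46.2% here, 49.4% under median scaling, 52.6% under cyclic loess and 58.3% under treat. The median of all genes lay between -0.13 and 0.02. Of 322 named probes, 314 were tested without any one of the WT1-negative arrays and 227 with detection on all 9 arrays. None of those tested was reversed under any setting. Calls lost among the probes tested were 20 under median scaling, 4 under cyclic loess, 12 with no filter, 113 under treat and 7 to 14 when an array was left out. Probes that no longer met the filter are not among them. With no filter Ctss was no longer called (limma, Benjamini-Hochberg adjusted p 0.0511). List medians that changed sign under at least 1 setting were those of hyaluronan, TGF-beta, PDGF, Hedgehog (-0.01 with no filter), IGF, endothelin, imprinted, Hox, aquaporin and the 4 fibrosis marker genes. Under median scaling 3 TGF-beta, 4 NF-kappa B and 4 antioxidant genes were lower and 2 lysosomal and 4 lipid genes higher. Of 128 list counts, 116 to 122 stayed within 1.5 times when an array was left out. Without any one of the WT1-negative arrays 1 portal fibroblast and 1 basement membrane gene were lower. Without WT1-high replicate 29, 2 DNA replication genes were higher, without that array or WT1-negative replicate 11 1 cyclin or inhibitor was, and without WT1-high replicate 8 2 ribosomal protein genes were. Hox genes called lower numbered 1 without any array but WT1-negative replicate 3. Levels near the background limit, not depth of sequencing, limit the bounds written "at least".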
